A study of Mus musculus with 2 samples.

Results

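The genes described here are 10 members of the Notch pathway in mouse alveolar bone: the ligands Jag1, Jag2, Dll1 and Dll4, the receptors Notch1, Notch2, Notch3 and Notch4, and the target genes Hes1 and Hey1. They were taken as the rows whose gene symbol is one of these names, which gave 10 of 57126 named genes. Single-cell RNA libraries were made in a study of orthodontic tooth movement from the jaw bone around the upper first molar. C57BL/6J mice aged 6-8 weeks carried a nickel-titanium coil spring between the first molar and the incisors. In the force group the spring pulled at 25 g, and in the control group it was attached without force. The 12 mice were divided between these groups, on day 7 the molar was extracted and the bone within 1 mm of it collected, and the tissue of 6 mice was pooled per group, digested and freed of red cells by lysis. The labels do not tie either of the 2 libraries to a group. They are called library 1 and library 2, force is not compared with control, and a difference between them cannot be told apart from a difference between pools, preparations or depths.

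Notch signalling passes between touching cells. A Jagged or Delta-like ligand on one cell binds a Notch receptor on its neighbour, the receptor is cut first by an ADAM protease and then by gamma-secretase, and the freed intracellular part joins the DNA-binding protein RBPJ in the nucleus to switch on HES and HEY genes, which encode transcriptional repressors. In vessels the pathway is known for arterial identity and for the choice between tip and stalk cells, in mural cells (pericytes and smooth muscle) for their maturation, and in bone marrow for the choice between lymphoid fates.

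Library 1 held 77572847 unique molecular identifiers (UMIs, each standing for one captured RNA molecule) of named genes, and library 2 held 116775367. They gave 9506 and 11721 cells with medians of 3199 and 4418 UMIs per cell, and 70 cell barcodes occurred in both libraries. The cells fell into 27 clusters, of which 24 took a name from marker genes, and 22 classes with at least 30 cells in each library were ranked. Below, the highest and next class are those among ranked classes. Every named class had at least 1 UMI of each of its measured markers in both libraries. Such detection does not set a class apart, since mature neutrophil-like cells also had UMIs of all 8 endothelial markers. Unnamed clusters are called by their leading gene: the Apod cluster and the Spp1 cluster are stromal clusters that mixed markers of several types. Levels are UMIs summed over the cells of a class, scaled to 1000000 UMIs of that class and library (CPM). The class named for markers of pericytes or smooth muscle is called pericyte-like. Intervals are exact 95% Poisson or binomial limits that cover counting error only. Each library is 1 pool, so there are no replicates and no tests. Levels are compared between classes within a gene, not between genes.

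The first view of the genes is given by their promoters. RefSeq windows on the GRCm38.p6 build, the 250 bases before a gene's start, were matched for 8 of the 10 genes, the ligands and receptors. No window was available for the target genes Hes1 and Hey1, so they were not searched. The matched windows were searched on both strands for TGGGAA, the core bound by RBPJ, and for AGGAAG, a core bound by ETS factors, which are prominent in endothelial cells. None of the 8 genes held TGGGAA in its window, against 21.6% of 32817 promoters of the same length. AGGAAG was found for 2 of them, Notch4 and Dll1, against 29.48% of the promoters. A match is a description of letters and not a binding site, and its absence says only that these letters are not in this window. The windows of 5 genes are printed because the results below turn on these genes in vessel cells: Notch4, Dll1 and Dll4 in endothelial-like cells (Dll4 also in plasmacytoid dendritic cell-like cells), and Notch3 with its pathway partner Nrarp in pericyte-like cells. Each reads 5′ to 3′ on the gene's strand, and capitals mark AGGAAG or its reverse complement CTTCCT. Notch4 lies at chr17:34564045-34564294 (plus strand), with matches that begin 245, 197 and 73 bases before the start. A window held 2 or more matches in 6.25% of all promoters. The Dll1 window lies at chr17:15375824-15376073 (minus strand), with 1 match that begins 14 bases before the start, and a second Dll1 start had none. Dll4 lies at chr2:119325534-119325783 (plus strand), Notch3 at chr17:32166891-32167140 (minus strand) and Nrarp at chr2:25180508-25180757 (plus strand).
Notch4: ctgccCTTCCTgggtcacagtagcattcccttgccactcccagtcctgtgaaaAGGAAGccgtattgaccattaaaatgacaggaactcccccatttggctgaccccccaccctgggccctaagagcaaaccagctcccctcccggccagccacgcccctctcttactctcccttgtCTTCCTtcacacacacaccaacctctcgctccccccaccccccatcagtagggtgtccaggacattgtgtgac
Dll1: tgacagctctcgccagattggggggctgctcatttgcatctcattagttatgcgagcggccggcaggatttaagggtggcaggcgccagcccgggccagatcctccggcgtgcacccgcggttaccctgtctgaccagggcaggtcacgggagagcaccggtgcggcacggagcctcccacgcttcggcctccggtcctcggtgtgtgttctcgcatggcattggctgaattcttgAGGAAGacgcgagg
Dll4: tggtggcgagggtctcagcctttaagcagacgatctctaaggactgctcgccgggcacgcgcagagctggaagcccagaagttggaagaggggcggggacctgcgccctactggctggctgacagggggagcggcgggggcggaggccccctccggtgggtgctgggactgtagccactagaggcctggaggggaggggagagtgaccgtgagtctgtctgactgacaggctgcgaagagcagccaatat
Notch3: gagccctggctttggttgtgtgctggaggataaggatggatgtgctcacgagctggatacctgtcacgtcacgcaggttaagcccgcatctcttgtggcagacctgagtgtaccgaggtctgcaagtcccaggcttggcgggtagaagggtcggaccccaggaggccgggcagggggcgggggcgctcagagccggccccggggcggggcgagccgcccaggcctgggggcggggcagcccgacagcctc
Nrarp: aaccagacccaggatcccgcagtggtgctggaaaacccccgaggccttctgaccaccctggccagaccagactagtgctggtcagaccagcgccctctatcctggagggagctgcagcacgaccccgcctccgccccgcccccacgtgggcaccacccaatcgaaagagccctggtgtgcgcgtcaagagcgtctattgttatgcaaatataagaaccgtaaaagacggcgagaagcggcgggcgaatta

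For 7 of the 10 genes, both libraries put the highest level in the same class. This was so for 55.2% of the 13745 measured genes, which reached 20 UMIs in 1 class or more of each library. A lead of 2-fold or more over all other ranked classes, in library 1 and in library 2, was seen for 3 of the 10, Dll1, Notch3 and Notch4, against 11.3% of all measured genes. Endothelial-like cells were highest for Dll1, Notch1 and Notch4 (3.72% of all measured genes had this class highest), and pericyte-like cells for Jag1 and Notch3 (3.38%). Stem and early progenitor-like cells were highest for Jag2 (1.28%) and mature neutrophil-like cells for Notch2 (3.83%). Dll4, Hes1 and Hey1 had different highest classes in the 2 libraries. The median log2 ratio of the highest to the next class was 1.09 in library 1 and 0.73 in library 2 for the 10 genes, against 0.36 and 0.34 for all measured genes. The heat map of levels shows vessel and stromal classes in its upper rows and blood classes in its lower rows.

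**Figure D1:**
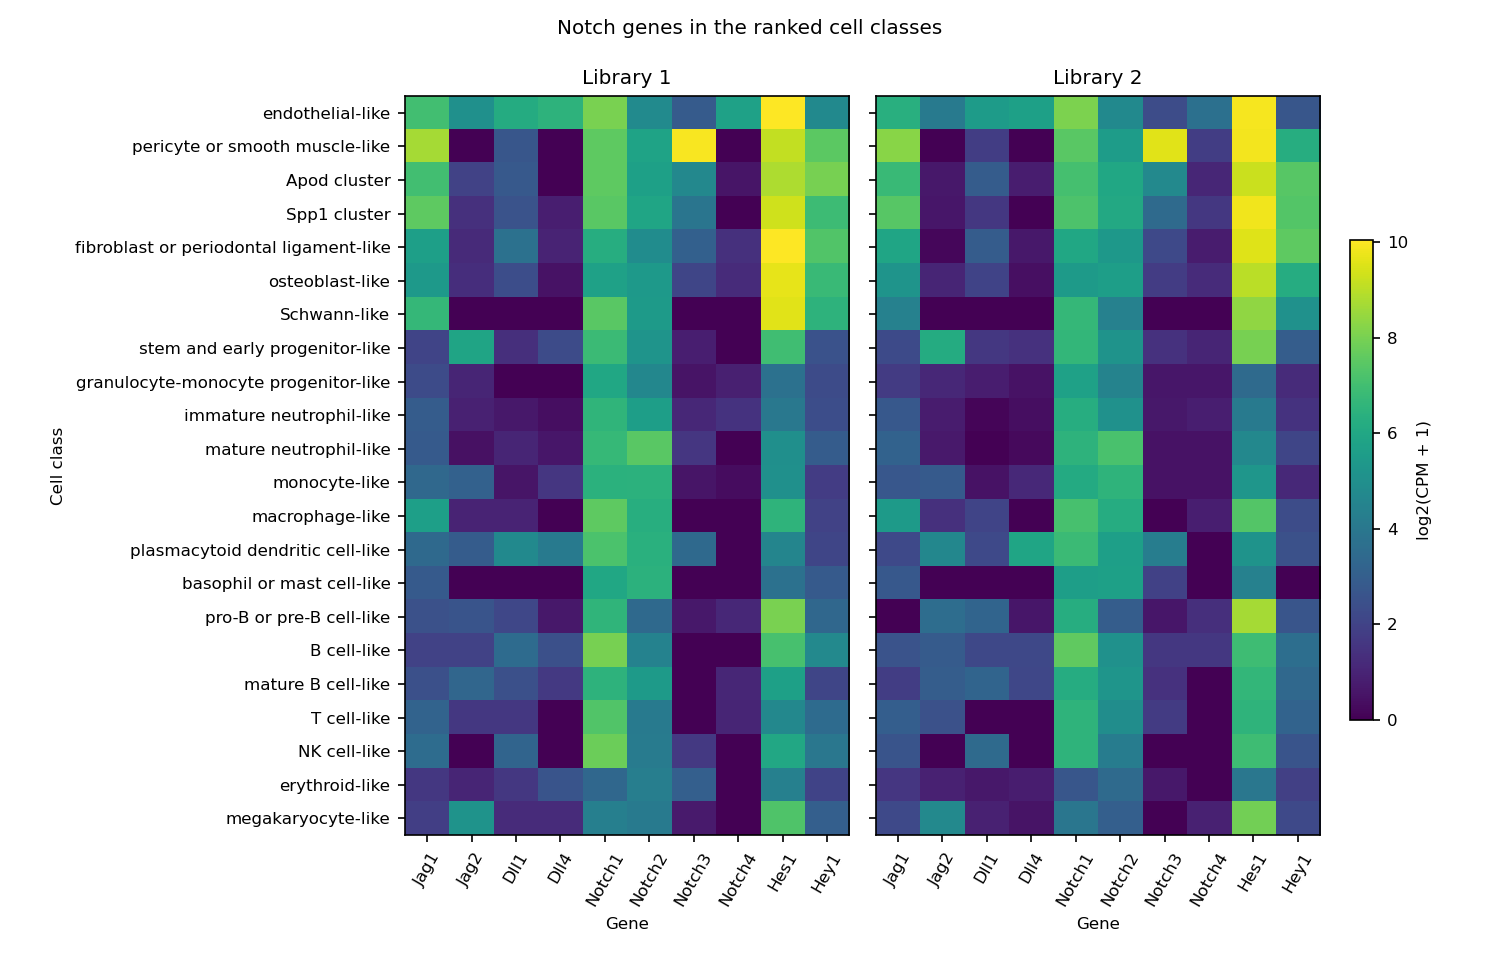
Levels of the 10 Notch genes (columns) in the 22 ranked classes (rows) as log2(CPM + 1), library 1 on the left and library 2 on the right. Notch3 is high in pericyte-like cells (990 and 763 CPM), Notch4 and Dll1 are highest in endothelial-like cells, Hes1 is high in vessel, stromal and Schwann-like cells, and Hey1 is high in pericyte-like and stromal cells and low in endothelial-like cells (25.8 and 5.40 CPM).

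Jag1 encodes Jagged 1, the ligand known from vessel walls and bone-forming stroma. Pericyte-like cells held 155 Jag1 UMIs in library 1, a level of 415 CPM (352 to 486), and 120 UMIs in library 2, or 304 CPM (252 to 364). The Spp1 cluster came next in both, with 184 CPM (161 to 210) and 170 CPM (152 to 190), so the ratios were 2.25 (1.82 to 2.78) and 1.79 (1.44 to 2.21). The Apod cluster followed with 126 and 112 CPM and endothelial-like cells with 125 and 80.4 CPM. In library 1 these last levels could not be separated by counting error, and in library 2 their ratio was 1.39. Fibroblast or periodontal ligament-like cells (49.7 and 59.0 CPM), macrophage-like cells (51 and 54 UMIs, with intervals of 37.3 to 65.8 and 32.3 to 56.2 CPM) and osteoblast-like cells (40.6 and 35.7 CPM) stood lower. Granulocyte-monocyte progenitor-like cells, a blood class, lay at 3.87 and 2.35 CPM, below the level of barcodes with at most 100 UMIs, which hold mostly free RNA (34.7 and 32.6 CPM). After each cell was thinned to 1000 UMIs, 27.7% and 20.8% of pericyte-like cells had a Jag1 UMI (60.0% and 41.7% before thinning), against 0.357% and 0% of granulocyte-monocyte progenitor-like cells (5.42% and 3.92% before). Median depths were 3522 and 2973 UMIs in the former and 13966 and 19571 in the latter. The 0% is of 559 cells and allows up to 0.537%. Over the 22 classes the patterns closest to that of Jag1 were those of Wtip (Pearson r of log2 levels 0.90 and 0.93), Vasn, which encodes a cell-surface protein that binds TGF-beta (0.90 and 0.90), and Kitl, the stem cell factor gene (0.89 and 0.89). The classes share library and depth, so these correlations, like those below, are descriptions.

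Jag2, the other Jagged ligand gene, was highest, among ranked classes, in stem and early progenitor-like cells of the blood lineage. That class held 73 UMIs in library 1, or 57.1 CPM (44.8 to 71.8), and 208 UMIs in library 2, or 71.4 CPM (62.0 to 81.8). Megakaryocyte-like cells, the platelet precursors, came next at 34.5 CPM (25.8 to 45.3) and 25.3 CPM (19.1 to 32.9), and the ratios were 1.66 (1.14 to 2.41) and 2.82 (2.09 to 3.86). With 10% of cells removed as doublets in place of 5%, the stem and early progenitor-like level was 32.9 CPM in library 2, and in library 1 megakaryocyte-like cells were highest (log2 ratio of the former to the latter -0.23). An arterial-like class of endothelial cells, too small to be ranked and described below, held more, with 15 UMIs in library 1 (101 CPM, 56.8 to 167) and 25 in library 2 (91.2 CPM, 59.0 to 135), and these intervals overlap those of the stem and early progenitor-like class. Endothelial-like cells stood at 32.2 and 15.9 CPM, and in neither library was the megakaryocyte-like level separated from the class after it. In pericyte-like cells no Jag2 UMI was found in either library, while Jag1 was highest there. The 0 of library 1 allows up to 8.03 CPM, which is above the median Jag2 level of the ranked classes (1.56 CPM). In each library 4 ranked classes had no Jag2 UMI. Thinned shares were 7.24% and 4.39% of stem and early progenitor-like cells (26.6% and 33.9% unthinned), against 0% and 0% of osteoblast-like cells, which allow up to 0.378% and 0.441% (1.21% and 0.441% unthinned). Median depths were 6281 and 7829 UMIs in the former and 7335 and 6638 in the latter. Stem and early progenitor-like cells also carried the megakaryocyte markers, all 7 detected and summing to 1815 and 1475 CPM against 49324 and 49791 CPM in megakaryocyte-like cells, and the part of this in the Jag2 level was not tested. Closest in pattern to Jag2 were Robo3, a receptor of the Slit guidance system (r 0.75 and 0.71), the urea transporter gene Slc14a1 (0.73 and 0.66) and Zfp820 (0.74 and 0.65), each of them highest in megakaryocyte-like cells.

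Dll1 encodes Delta-like 1, a ligand known from arteries and from lymphoid niches. Endothelial-like cells held 146 UMIs in library 1, or 71.2 CPM (60.1 to 83.7), and 164 UMIs in library 2, or 44.3 CPM (37.8 to 51.6). The next class differed between libraries. It was the plasmacytoid dendritic cell-like class in library 1, with 8 UMIs (25.9 CPM, ratio 2.74, 1.36 to 6.47), and NK cell-like cells in library 2, with 4 UMIs (10.2 CPM, ratio 4.36, 1.67 to 16.2). Against all other ranked cells together, Dll1 was 22.2-fold (17.6 to 28.1) and 18.6-fold (14.9 to 23.1) higher. Below the top class, no neighbours in the order of levels were separated by counting error in either library. The thinned share was 7.12% and 3.89% of endothelial-like cells (25.3% and 16.6% unthinned), and 0.180% and 0% of immature neutrophil-like cells (0.344% and 0.0833% unthinned; the 0% allows up to 0.250%). Median depths were 4947 and 4556.5 UMIs in endothelial-like and 4458 and 6274 in immature neutrophil-like cells. The patterns most like Dll1 were those of Zfp36l1, which encodes an RNA-binding protein that speeds mRNA decay (r 0.71 and 0.73), Ramp2, a co-receptor of adrenomedullin (0.79 and 0.71), and the transcription factor gene Sox11 (0.70 and 0.71), all highest in endothelial-like cells.

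Dll4, Delta-like 4, is the ligand of endothelial tip cells and arteries. It was concentrated in few classes. In each library 2 of the 22 classes exceeded the free-RNA level (6.39 and 3.81 CPM), and they were the same classes. Endothelial-like cells held 181 UMIs in library 1, or 88.2 CPM (75.9 to 102), and 188 UMIs in library 2, or 50.8 CPM (43.8 to 58.5). The plasmacytoid dendritic cell-like class is named for the interferon-producing blood cells. It held 5 UMIs in library 1, or 16.2 CPM (5.27 to 37.8), and 65 UMIs in library 2, or 59.5 CPM (45.9 to 75.8). Endothelial-like cells were therefore 5.44-fold (2.29 to 17.0) above in library 1, and in library 2 the plasmacytoid dendritic cell-like level was 1.17 times the endothelial one (0.870 to 1.56), which counting error does not separate. Under 7 of 16 alternative settings both libraries had 1 highest class for Dll4, and under the others they did not. Endothelial-like cells were highest in both, for example, when no doublets were removed, when TMM size factors (a scaling that trims extreme genes) were used, or when arterial-like cells were counted in their class. In library 2 the Dll4 UMIs lay in 47 of 212 plasmacytoid dendritic cell-like cells (22.2%), with at most 4 in a cell, and in library 1 in 5 of 67 (7.46%). Thinned shares were 7.08% (4.01 to 11.4) in library 2 and 0% in library 1, which allows up to 4.48%, against 5.30% and 10.3% of endothelial-like cells and 0% and 0.126% of osteoblast-like cells in the same order. Median depths of the plasmacytoid dendritic cell-like class were 3773 UMIs in library 1 and 4876 in library 2. The class also had 5 of 7 conventional dendritic cell markers raised 3-fold, and no cluster took that name. Whether the class holds both kinds of dendritic cell was not tested. Of the 8 endothelial markers, 6 had a UMI in this class in each library, summing to 376 and 251 CPM against 5060 and 5434 CPM in endothelial-like cells, and Tie1 and Esam were at 0. In library 2, 23 of the 47 cells with a Dll4 UMI had an endothelial marker UMI (48.9%, 34.1 to 63.9), against 94 of the 165 without one (57.0%, 49.0 to 64.6). Any 1 UMI of the 8 markers counted here, and the source of the Dll4 UMIs was not tested. Closest to Dll4 was Cdh5, the VE-cadherin gene and one of the endothelial markers (r 0.88 and 0.81), and Adamtsl2 (0.79 and 0.78) and Rasgrp3, an activator of Ras-family GTPases (0.76 and 0.75), followed.

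Among the receptors, Notch1 was the most widely spread over classes. Endothelial-like cells held 527 UMIs in library 1, or 257 CPM (235 to 280), and 987 UMIs in library 2, or 266 CPM (250 to 284). B cell-like cells came next at 251 CPM (215 to 292) and 191 CPM (169 to 216). The ratio was 1.02 (0.859 to 1.22) in library 1, where the order rests on counting error, and 1.39 (1.22 to 1.60) in library 2. With the Notch genes kept among the clustering genes, the arterial-like class was larger, was ranked and had the highest Notch1 level in both libraries. In library 1 none of the 6 highest neighbouring pairs was separated, from endothelial-like cells down to Schwann-like cells at 175 CPM. NK cell-like cells stood at 222 CPM in library 1 and 91.4 CPM in library 2, T cell-like cells at 157 and 90.9 CPM, and pericyte-like cells at 185 and 177 CPM. The lowest classes held 9.32 and 5.47 CPM. In each library 12 of the 22 classes exceeded the free-RNA level of 100 and 82.1 CPM. Thinned shares were 18.5% and 23.3% of endothelial-like cells and 19.1% and 16.8% of B cell-like cells (60.2% and 62.5%, and 30.9% and 26.4%, unthinned), against 1.13% and 0.448% of erythroid-like cells (4.29% and 2.57% unthinned). Median depths were 1685 and 1767.5 UMIs in B cell-like cells and 2380 and 4856.5 in erythroid-like cells. The genes most like Notch1 were the kinase gene Map3k2 (r 0.86 and 0.88), Ubl3 (0.83 and 0.82) and Arid5a (0.84 and 0.80).

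Notch2, a receptor known for marginal-zone B cells and osteoclast precursors, was highest in mature neutrophil-like cells. They held 973 UMIs in library 1, or 175 CPM (164 to 187), and 682 UMIs in library 2, or 142 CPM (132 to 153). In library 1 the next class was basophil or mast cell-like, with 14 UMIs (87.5 CPM, ratio 2.00, 1.19 to 3.68), and in library 2 monocyte-like cells at 92.6 CPM (ratio 1.53, 1.36 to 1.73). Scaled with TMM size factors, the mature neutrophil-like level was 332 and 285 per 1000000 UMIs and still the highest. The mature neutrophil-like class was made of 2 clusters. The cluster led by Asprv1, Il1b and Hcar2 held 216 CPM (200 to 233) and 207 CPM (185 to 232), and the cluster led by Mmp8, Retnlg and Fpr1 held 119 CPM (106 to 134) and 113 CPM (102 to 125). Along the same lineage, immature neutrophil-like cells stood at 49.0 and 32.7 CPM and granulocyte-monocyte progenitor-like cells at 24.3 and 21.7 CPM. The stress list, 14 immediate-early and heat-shock genes raised by tissue digestion, summed to 19020 and 18464 CPM in the Asprv1 cluster and to 11540 and 8523 CPM in the Mmp8 cluster, and its part in the Notch2 level was not tested. The free-RNA level of Notch2 was 88.9 and 65.0 CPM, and mature neutrophil-like cells were the only ranked class above it in library 1 and 1 of 4 in library 2. Thinned shares were 17.4% and 13.7% of mature neutrophil-like cells, 11.4% and 8.74% of monocyte-like cells and 2.26% and 1.34% of erythroid-like cells. Unthinned, the monocyte-like shares were the larger (41.6% and 45.3% against 29.9% and 34.1%, with 8.10% and 5.69% in erythroid-like cells), at median depths of 6685.5 and 6117 UMIs against 2057.5 and 2920. Likeness to Notch2 was highest for Cebpb, a transcription factor gene of myeloid cells (r 0.76 and 0.78), Zfp516 (0.76 and 0.78) and Mir22hg, the host transcript of miR-22 (0.81 and 0.73).

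Notch3, the receptor of mural cells, had the sharpest placement of the 10 genes. Pericyte-like cells held 370 UMIs in library 1, or 990 CPM (892 to 1097), and 301 UMIs in library 2, or 763 CPM (679 to 854). The Apod cluster came next at 24.4 CPM (19.9 to 29.7) and 25.5 CPM (21.5 to 30.1), which gave ratios of 40.5 (32.4 to 51.0) and 29.9 (24.4 to 36.8). Against all other ranked cells together the ratios were 226 (191 to 269) and 214 (181 to 254). After thinning, 60.2% (48.9 to 70.8) and 53.3% (44.0 to 62.5) of pericyte-like cells had a Notch3 UMI, against 3.15% and 2.91% of Apod cluster cells and 0.356% and 0.353% of endothelial-like cells. Unthinned, these shares were 91.8% and 81.7%, 9.85% and 10.4%, and 1.38% and 1.06%. Endothelial markers were low in the pericyte-like class, with 7 of 8 detected, a sum of 206 and 172 CPM and Egfl7 at 0 in both libraries. Notch3 and Nrarp stood among the 10 leading genes of this cluster, although Notch genes were left out of the genes used to cluster, so their rank there is part of the cluster's description. The genes most like Notch3 were the anion exchanger gene Slc4a3 (r 0.88 and 0.88), Rgs4, a regulator of G protein signalling (0.87 and 0.89), and the junctophilin gene Jph2 (0.89 and 0.86), all highest in the same class.

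**Figure D2:**
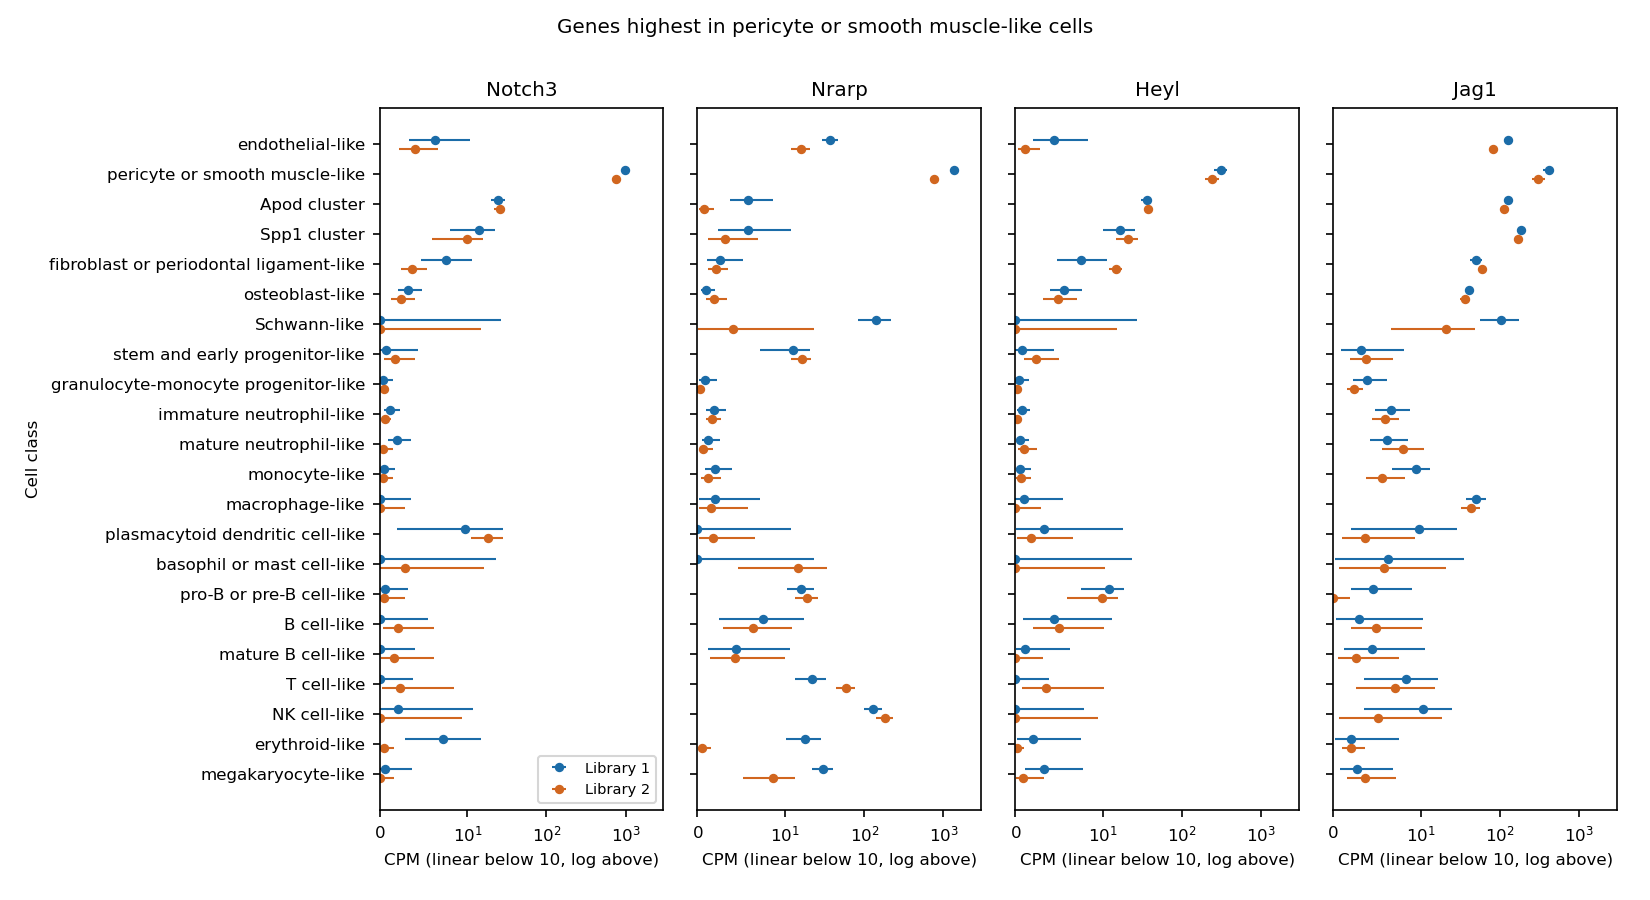
CPM of Notch3, Nrarp, Heyl and Jag1 in each ranked class, with exact 95% Poisson intervals, library 1 in blue and library 2 in orange, on an axis that is linear below 10 CPM and logarithmic above. All 4 genes are highest in pericyte-like cells in both libraries, by the widest margin for Notch3 (990 and 763 CPM).

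Notch4, the receptor known from endothelium, was rare. Endothelial-like cells held 108 UMIs in library 1, or 52.7 CPM (43.2 to 63.6), and 44 UMIs in library 2, or 11.9 CPM (8.63 to 15.9), and these intervals did not overlap. Against all other ranked cells together the ratios were 65.7 (45.0 to 97.8) and 15.8 (10.4 to 23.9). No Notch4 UMI was found in 12 of the 22 classes in library 1 and in 7 in library 2. Among classes at 0 in library 1, Schwann-like cells have the fewest UMIs, and their 0 allows up to 21.9 CPM, so endothelial-like cells were at least 2.40-fold higher. In library 2 the same limit was 12.3 CPM, which is not below the endothelial-like level, and the next class with UMIs, pericyte-like, had 1 UMI (ratio 4.69, 0.799 to 189). The 2-fold call for Notch4 thus rests on setting classes at 0 to the level of 0.5 UMIs. Osteoclast-like cells, too few to be ranked (46 and 26), held 3 UMIs in library 1 (7.26 CPM, 1.50 to 21.2) and 12 UMIs in 8 cells of library 2 (21.6 CPM, 11.1 to 37.7). Endothelial markers in osteoclast-like cells summed to 65.4 CPM in library 1, with Egfl7 and Tie1 at 0. In library 2 they summed to 27.0 CPM, with Cdh5, Egfl7, Emcn, Tie1 and Esam at 0. Under 3 of the other cell filters osteoclast-like cells were ranked and had the highest Notch4 level of library 2, and with the Notch genes among the clustering genes the arterial-like class was highest in both libraries. The thinned Notch4 share was 4.98% and 1.24% of endothelial-like cells (21.5% and 5.83% unthinned), against 0.126% and 0% of osteoblast-like cells, which allows up to 0.441% (1.09% and 0.881% unthinned). The genes most like Notch4 were Ushbp1 (r 0.84 and 0.80), the protocadherin gene Pcdh12 (0.88 and 0.78) and Tacr1, the substance P receptor gene (0.89 and 0.78), all highest in endothelial-like cells.

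Within endothelial-like cells, 6 sub-clusters were separated, again without Notch genes among the clustering genes. One was arterial-like, led by Sema3g, Gja4 and Gkn3 with 6 of 8 arterial markers raised, and held only 16 and 28 cells. It was kept apart from the ranked endothelial-like class. Dll4 was highest there, with 39 UMIs in library 1 (264 CPM, 188 to 360) and 71 in library 2 (259 CPM, 202 to 327). The Gpihbp1-led sub-cluster followed with 119 CPM (99.3 to 142) and 126 CPM (91.4 to 169), and the Fos-led one with 89.6 and 68.8 CPM. The Ccn2-led sub-cluster was lower, at 48.4 CPM in library 1, from 5 UMIs (15.7 to 113), and 19.3 CPM in library 2 (12.6 to 28.3). The order of Dll4 from arterial-like to Gpihbp1-led to Fos-led cells was the same in both libraries, and the intervals of the first did not overlap those of the others. The Gpihbp1-led and Fos-led intervals overlapped in library 1 (Fos-led 64.3 to 122) and were apart in library 2 (Fos-led 56.2 to 83.5). Notch1 was 460 CPM (357 to 583) and 387 CPM (317 to 468) in arterial-like cells, and between 126 and 354 CPM in the other 5 sub-clusters, with overlapping intervals in library 2. Notch4 was also highest in arterial-like cells (122 CPM, 72.1 to 192, and 58.4 CPM, 33.4 to 94.8), then in Gpihbp1-led cells (74.8 and 34.3 CPM), with overlapping intervals. Hey1, low in endothelial-like cells as a whole (25.8 and 5.40 CPM), reached 74.4 CPM (37.1 to 133) and 102 CPM (67.9 to 148) in arterial-like cells. Jag2 stood there at 101 and 91.2 CPM and Nrarp at 122 and 131 CPM. Jag1 lay between 22.1 and 153 CPM over the sub-clusters. Dll1 was not raised in arterial-like cells (33.8 and 47.4 CPM) and was highest in Fos-led cells of library 1 (107 CPM) and in the Mki67-bearing sub-cluster of 14 cells in library 2 (95.6 CPM).

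Notch4 was lower in library 2 than in library 1 in all 6 endothelial sub-clusters, with intervals apart in 1 of them. The makeup of the class differed too. Gpihbp1-led cells numbered 141 in library 1 and 41 in library 2, while Ccn2-led cells numbered 36 and 297. Notch4 in Ccn2-led cells was 9.68 CPM in library 1, from 1 UMI (0.245 to 53.9), and 7.42 CPM in library 2 (3.56 to 13.7). The part of this makeup in the library difference was not tested. Dll4 was higher in library 1 in 4 of the 6 sub-clusters, and no interval pair was apart.

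**Figure D3:**
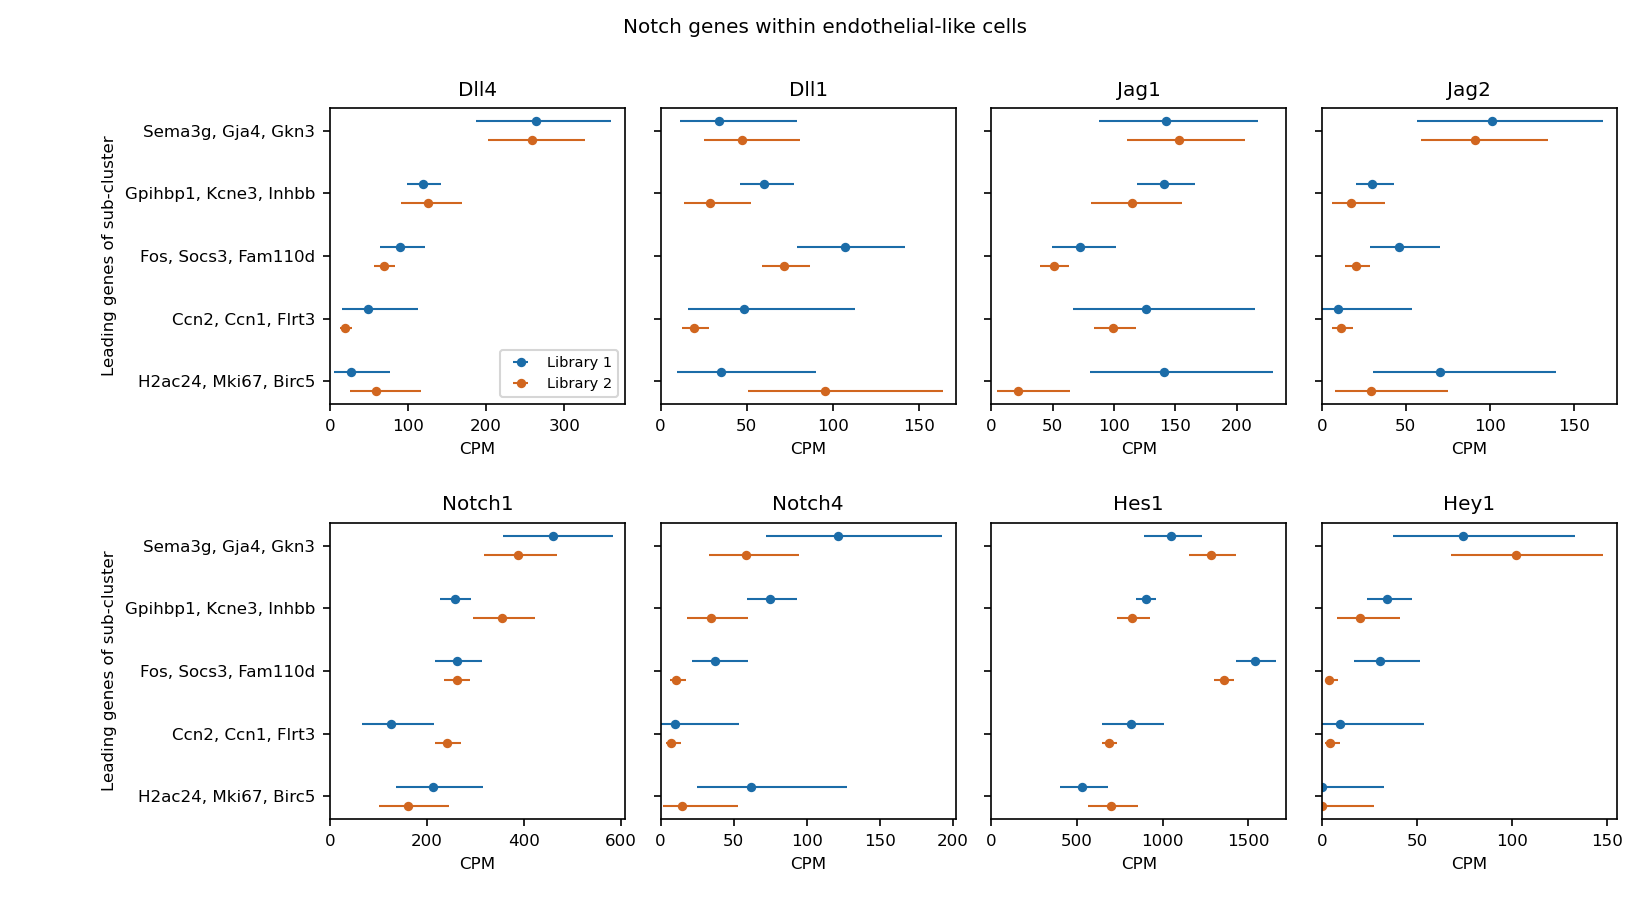
CPM of 8 Notch genes in 5 of the 6 sub-clusters of endothelial-like cells, named by their 3 leading genes, with exact 95% Poisson intervals, library 1 in blue and library 2 in orange. The Sema3g, Gja4, Gkn3 sub-cluster (arterial-like) is highest for Dll4 (264 and 259 CPM), Notch1, Notch4 and Hey1, while Hes1 is highest in the Fos-led sub-cluster (1541 and 1356 CPM).

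Hes1, a target gene that encodes a repressor of differentiation, was high in vessel, stromal and Schwann-like cells. Fibroblast or periodontal ligament-like cells (1051 CPM, 1015 to 1088) and endothelial-like cells (1041 CPM, 998 to 1086) led in library 1, with a ratio of 1.01 (0.955 to 1.07). Endothelial-like cells (959 CPM, 927 to 991) and pericyte-like cells (927 CPM, 835 to 1027) led in library 2, with a ratio of 1.03 (0.928 to 1.15). Neither order exceeds counting error. The fibroblast-like level of library 1 also moved with the cell filters, to 686 CPM with at least 2000 UMIs per cell and to 685 CPM with no doublets removed, below endothelial-like cells both times. The Spp1 cluster held 641 and 910 CPM, the Apod cluster 449 and 603 CPM, osteoblast-like cells 804 and 511 CPM and Schwann-like cells 760 and 327 CPM. Among blood classes, pro-B or pre-B cell-like cells stood highest at 261 and 413 CPM, followed by megakaryocyte-like cells in library 1 (155 CPM, and 237 CPM in library 2) and by stem and early progenitor-like cells in library 2 (255 CPM, and 124 CPM in library 1). B cell-like cells held 140 and 120 CPM. Granulocyte-monocyte progenitor-like cells were lowest at 12.3 and 10.0 CPM. Thinned shares were 52.7% and 42.6% of endothelial-like cells and 45.2% and 36.6% of fibroblast-like cells (80.3% and 73.1%, and 69.9% and 67.3%, unthinned), against 3.39% and 2.02% of erythroid-like cells (8.57% and 6.47% unthinned). Likeness to Hes1 was highest for Pals1 (r 0.88 and 0.88), Dcbld2 (0.88 and 0.90) and Id3, an inhibitor of basic helix-loop-helix factors (0.87 and 0.88).

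The library difference of the stress list was set beside that of Hes1 in each ranked class. In all 7 classes whose Hes1 level was at least 300 CPM in both libraries, a limit chosen after the values were seen, the library with the higher summed stress level also had the higher Hes1 level. The stress sums were 56411 and 32130 CPM in fibroblast-like cells, where Hes1 was higher in library 1, and 19156 and 24137 CPM in pericyte-like cells, where it was higher in library 2. In the other 15 ranked classes the orders matched in 7 and differed in 8, among them pro-B or pre-B cell-like, megakaryocyte-like and stem and early progenitor-like cells. Within endothelial-like cells, Hes1 was highest in the Fos-led sub-cluster at 1541 CPM (1429 to 1659) and 1356 CPM (1298 to 1417), where Fos itself, a gene of the stress list, was 3885 and 3444 CPM. Arterial-like cells of library 2 overlapped this in Hes1 (1284 CPM, 1153 to 1425) and held 3272 CPM of Fos, while the Mki67-bearing sub-cluster of library 2 held 2163 CPM of Fos and 699 CPM of Hes1. The part of stress genes in the Hes1 level was not tested.

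Hey1, a target gene known from arteries and bone-forming cells, was highest in stromal classes. The Apod cluster held 1048 UMIs in library 1, or 254 CPM (239 to 270), and 954 UMIs in library 2, or 174 CPM (163 to 185). Fibroblast or periodontal ligament-like cells held 159 CPM (145 to 174) and 184 CPM (174 to 194). In library 1 the next class after the Apod cluster was pericyte-like at 182 CPM (ratio 1.39, 1.09 to 1.81), and in library 2 the fibroblast-like class exceeded the Apod cluster by a ratio of 1.06 (0.972 to 1.15), within counting error. The Spp1 cluster stood at 117 and 163 CPM and osteoblast-like cells at 111 and 72.8 CPM. Schwann-like cells, at 87.7 and 32.7 CPM, were the last class before a drop to 25.8 and 11.3 CPM in the class that followed. Their level was above the free-RNA level in library 1 (51.4 CPM) and below it in library 2 (40.5 CPM), and the endothelial-like level was below it in both. Thinned shares were 20.9% and 13.4% of Apod cluster cells and 12.8% and 14.6% of fibroblast-like cells (51.9% and 41.0%, and 33.3% and 42.0%, unthinned), against 0.565% and 0.224% of erythroid-like cells (1.43% and 1.45% unthinned). Median depths were 5279.5 and 4958 UMIs in the Apod cluster and 4395 and 6272 in the fibroblast-like class. Closest to Hey1 were Bgn, which encodes the matrix proteoglycan biglycan (r 0.95 and 0.93), Gpx8 (0.93 and 0.94) and Evc2, a gene of the primary cilium (0.94 and 0.93). Hes1 and Hey1 had r of 0.83 and 0.78 with each other, the highest of all pairs of the 10 genes in each library. Jag1 and Hey1 followed with 0.79 and 0.73, and Dll4 and Hey1 had -0.19 and -0.14.

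**Figure D4:**
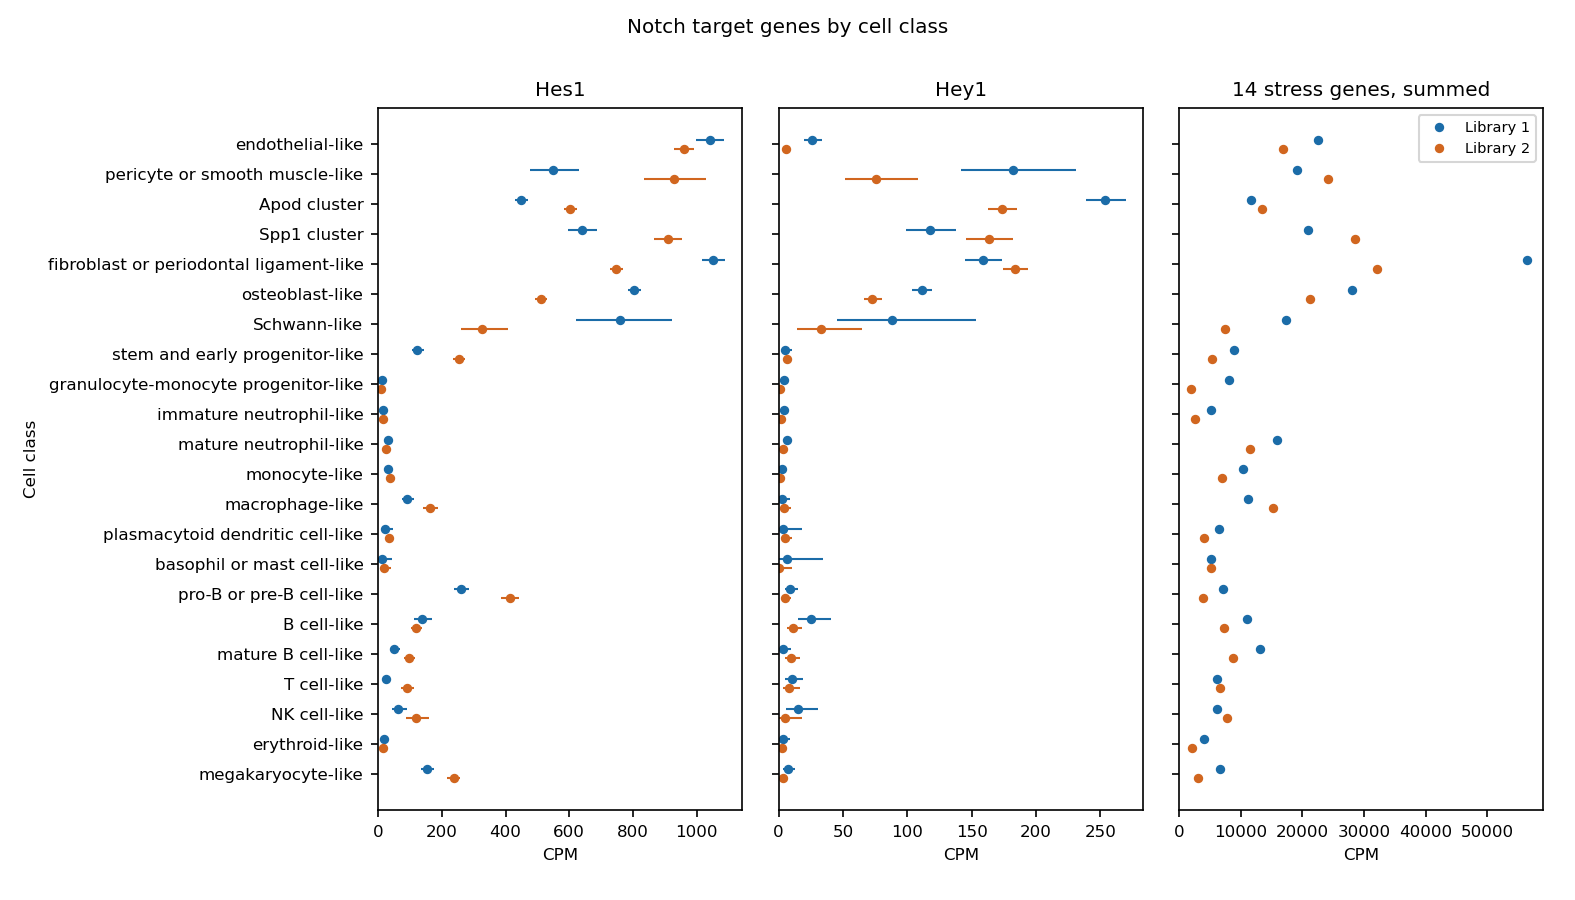
CPM of Hes1 and Hey1 with exact 95% Poisson intervals, and of the 14 stress genes summed, in each ranked class, library 1 in blue and library 2 in orange. Hes1 is high from endothelial-like down to Schwann-like cells in the list and Hey1 from pericyte-like down to osteoblast-like cells, and fibroblast-like cells have the largest stress sum (56411 and 32130 CPM).

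The rest of the pathway was read from a list of 47 further genes, of which 42 were measured. Both libraries agreed on the highest class for 26 of these, and for 7 that class led all others 2-fold or more, against 55.2% and 11.3% of all measured genes. The list's median log2 ratio was 0.21 and 0.26, against 0.36 and 0.34 for all measured genes. Dll3, Dlk1, Hes5, Hey2 and Ptcra did not reach the UMI minimum in both libraries.

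Pericyte-like cells were highest for 5 of the 42 genes, among them Nrarp, Heyl, Dtx3 and Neurl1b, and for 3.38% of all measured genes. Nrarp, a target gene whose product limits Notch signalling, held 502 UMIs in library 1 (1344 CPM, 1229 to 1467) and 299 in library 2 (758 CPM, 674 to 849), which was 9.67-fold (6.13 to 16.2) and 4.20-fold (3.23 to 5.52) above the next class. That class was Schwann-like in library 1 (139 CPM from 19 UMIs) and NK cell-like in library 2 (180 CPM). Heyl, a HEY-family target, held 115 UMIs (308 CPM, 254 to 370) and 94 UMIs (238 CPM, 192 to 291), 8.65-fold (6.72 to 11.1) and 6.38-fold (4.94 to 8.18) above the Apod cluster. Dtx3, of the Deltex ubiquitin ligase family, held 177 and 139 CPM, 2.43-fold and 2.95-fold above the next class. Neurl1b, which acts in ligand uptake, led by a margin within counting error in library 1 (ratio 1.10).

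Other genes of the list were highest in other classes. Macrophage-like cells were highest for 4 genes, Lfng, Dtx2, Dtx4 and Rbpj (3.05% of all measured genes had this class highest). Lfng, the Fringe enzyme that changes which ligands a receptor answers to, held 196 CPM (170 to 225) and 203 CPM (179 to 230) there, 1.90-fold and 2.15-fold above the next class. Rbpj, the DNA-binding partner, held 279 and 219 CPM there and 251 and 176 CPM in monocyte-like cells, a ratio of 1.11 (0.971 to 1.27) and 1.25 (1.08 to 1.43). Mfng, another Fringe gene, was highest in endothelial-like cells (58.5 and 45.1 CPM), by a margin within counting error in both libraries. The ratio to the next class was 1.44 (0.885 to 2.48) in library 1 and 1.00 (0.793 to 1.27) in library 2. Megakaryocyte-like cells were highest for Neurl1a (31.9 and 37.1 CPM) and Hes7 (25.9 and 15.4 CPM). In library 1 the next class for both was Schwann-like at 0 UMIs, which allows up to 21.9 CPM. A 2-fold lead is not shown there at that limit, and the interval of the Hes7 ratio reached down to 0.915. Furin, the protease that cuts receptors in the Golgi, was highest in basophil or mast cell-like cells (681 and 431 CPM, ratios 2.93 and 2.32), and Dner, a Delta-like surface protein gene, in the Apod cluster (24.4 and 77.4 CPM, ratios 2.14 and 3.40). Dtx1, a Deltex gene known from lymphocytes, was highest in B cell-like cells in library 1 (162 CPM, with 142 CPM in mature B cell-like cells) and in mature B cell-like cells in library 2 (163 CPM, with 137 CPM), within counting error both times.

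The proteases and the nuclear complex were read last. Of 9 protease genes 3 had a shared highest class, Adam17 and Aph1a in monocyte-like cells and Aph1b in immature neutrophil-like cells, and none stood 2-fold above the rest. The leads of Adam17 (ratio 1.10, 0.928 to 1.32) and Aph1b (1.02, 0.809 to 1.28) were within counting error in library 2. That of Aph1a was so in library 1 (1.03, 0.660 to 1.69). Aph1b and Aph1c are near-identical copies, so their counts are uncertain. Of 8 nuclear complex genes 3 had a shared highest class, Rbpj and Maml3 among them, and none stood 2-fold above the rest. The Maml3 lead was within counting error in both libraries (ratios 1.06, 0.511 to 2.53, and 1.02, 0.605 to 1.87). The median log2 ratios were 0.10 and 0.14 for the proteases and 0.14 and 0.04 for the nuclear complex, beside 0.36 and 0.34 for all measured genes. The 3 measured HES and HEY genes beside Hes1 and Hey1 all had a shared highest class, Hes6 in B cell-like cells, Hes7 in megakaryocyte-like cells and Heyl in pericyte-like cells.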

How the data were processed

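The authors deposited raw UMI counts per gene and barcode, as unfiltered sparse matrices for 2 libraries. FastQC 0.11.9 and the builds GRCh38 and mm10 stand in the submitters' processing notes without a stated role. Aligner, counting program and annotation: not given in the sources used here. Features without a symbol, 0.602% and 0.431% of UMIs, were left out. A barcode was a cell with at least 766 UMIs in library 1 or 986 in library 2 (the inflection of the barcode rank curve, above the minimum of 500), 200 genes and at most 20% mitochondrial UMIs. Scrublet's own threshold marked only 2 cells in each library, so it had not worked, and the top 5% of cells by score were left out (500 and 617). Doublets may remain. The UMI minimum and the digestion can set how many cells a class has.

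Both libraries were clustered together with scanpy 1.11.5 under Python 3.11.15, without batch correction: counts scaled to 10000 per cell, 2000 variable genes without the Notch genes, 30 principal components, 15 neighbours and Leiden resolution 1.0 (0.5 within endothelial-like cells). A cluster took the name of a marker list when at least 3 markers and 50% of the list were raised 3-fold and no other list had more genes among the 10 leading genes. These limits were set after the clusters had been seen. Summed counts were scaled to CPM. Levels of 0 UMIs were set to 0.5 UMIs for ratios between classes. The ranking step was checked on simulated counts. Intervals and the 3-count limit for a count of 0 cover counting error only.

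Named genes are the 10 members, the 3 measured genes with the highest likeness to each (the lower r of both libraries), and the Notch list. The members and lists were chosen with earlier results of these data known. The alternatives tried changed the cell filters, the doublet share, the clustering, the scaling, the ranked classes, the UMI minimum of a gene and the treatment of free RNA. No column of per-sample values was left unused. The values of 1 gene of the Notch list and of 1 endothelial sub-cluster are not reported here.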

Additional observations from a re-analysis of the deposited data

How the results depend on the processing

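Across 16 alternatives, 6 to 10 of the 10 genes had 1 highest class in both libraries (7 as reported), and 2 to 4 led all other classes 2-fold or more (3 as reported). Of these alternatives, 1 was chosen after seeing the data: without the 3 ranked classes of fewest UMIs the counts were 8 and 4. The lead of Dll1 was 2-fold under 15 alternatives, that of Notch3 under 15 and that of Notch4 under 12. Dll1 and Notch2 kept their highest class under all 16, Jag1 and Notch3 under 15 (with at least 100 cells per class, pericyte-like cells are not ranked), Notch1 under 14, Jag2 under 13 and Notch4 under 12. At resolution 0.5, and with the libraries clustered apart, no class took the stem and early progenitor name.

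Of the genes with 1 highest class, these changed order under an alternative, given as the log2 ratio of that class to the highest other class. With Notch genes kept for clustering, the ratio of endothelial-like cells was -0.44 and -0.41 for Notch1 and -2.00 and -2.19 for Notch4 in libraries 1 and 2. For Notch4 in library 2 it was -0.61 with a minimum of 500 UMIs per cell, -0.94 with a mitochondrial share of at most 10% and -0.50 with no doublets removed. For Notch1 in library 1 it was -0.011 with the mean of per-cell CPM. With 10% of cells removed as doublets, that of Jag2 in stem and early progenitor-like cells of library 1 was -0.23. The cause was not tested. Of the 303 log2 ratios and 303 levels under alternatives, 224 and 256 stayed within counting error of the reported value.

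The depth limits what can be said of Notch4, Dll1 and Dll4 outside endothelial-like cells, where most classes hold few UMIs. No paired analysis was possible because the labels tie neither library to a group.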
